A study of Rattus norvegicus with 13 samples.

Results

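The 100 kb domains described here are the stretches of the rat autosomes in which the methylated-DNA signal of morulae was at most 0.6 times that of sperm. The genome build was Rnor_6.0, cut into 1 kb windows, and 100 neighbouring windows were summed into a bin of 100 kb on chromosomes 1 to 20. Signal is given as CPM, the reads of a window or bin per 1000000 counts of its library. A bin entered when it held all 100 windows and its mean over the sperm libraries was at least 1 CPM, which left 26146 bins. Of these, 732 bins (2.80%) had a mean over the 6 morula libraries that was at most 0.6 times the mean over the 7 sperm libraries. They hold 73200 of the 2782040 windows measured. Because the domains were chosen by their measured morula and sperm values, every morula and sperm comparison of them is a description and carries no test.

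Methylated DNA was pulled down with an antibody and sequenced (MeDIP-seq) in 13 libraries of Hsd:Sprague Dawley rats, in 4 groups. DDT morulae (3 libraries) and control morulae (3 libraries) are pools of preimplantation embryos made by injecting single F3 sperm of the DDT or the control lineage into eggs of superovulated Sprague Dawley donors. DDT sperm (4 libraries) and control sperm (3 libraries) came from the cauda epididymis of F3 males aged to 1 year. In the DDT lineage the pregnant F0 female was injected with the insecticide DDT on embryonic days 8 to 14, in the control lineage with its DMSO vehicle, and only that generation was exposed. Sperm and morula groups of 1 lineage therefore share the ancestral treatment, and every morula also carries the maternal genome of an egg donor that the sperm libraries lack. The labels do not say which animals gave which library, so p-values measure only the spread between these samples, and no measured quantity here checks the labelled tissue.

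In mammals the sperm genome is highly methylated, and much of that methylation is lost between fertilisation and the blastocyst. The paternal genome is demethylated largely by TET3-driven oxidation in the zygote, the maternal genome more by dilution over cell divisions, and imprinted regions and some repeats are known to keep their marks. The morula lies near the low point of this cycle. MeDIP captures fragments by the number of methylated CpGs they hold, so its signal rises with CpG number as well as with methylation, and scaling to the library total shows where the captured reads lie and not how much methylation there is in all. A domain below 1 on this scale held a smaller share of the captured reads in morulae than in sperm.

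The domains held a similar share of the reads in every morula library. DDT morulae had 2.33%, 2.47% and 2.45% of their counts in the 732 bins, and control morulae had 2.51%, 2.58% and 2.42%. DDT sperm had 4.57%, 4.55%, 4.27% and 3.91%, and control sperm had 4.47%, 4.90% and 4.00%. All 6 morula values lie below all 7 sperm values, and the sperm libraries spread more widely. The mean was 2.46% ± 0.0843 in morulae (SD, n = 6) and 4.38% ± 0.346 in sperm (SD, n = 7). Summed over the domains, the morula signal was 0.561 times the sperm signal, and leaving out each library in turn gave 0.551 to 0.573.

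Library totals ranged from 30386626 to 193750804 counts, and the shallowest libraries were DDT sperm 4 (33684143 counts) and control sperm 3 (30386626 counts). These libraries stand apart from the other sperm libraries. No read was counted in 11.9% and 13.2% of their windows, against 4.97% to 6.35% in the other 11 libraries. DDT morula 1, with 37842198 counts, had 5.87%, and the part of depth in this difference was not tested. DDT sperm 4 and control sperm 3 also held the lowest shares of reads in the domains among sperm, 3.91% and 4.00%. Without them the summed ratio was 0.540 in the same 732 bins, and the rule would take 1145 bins, 715 of them shared with the 732.

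**Figure D1:**
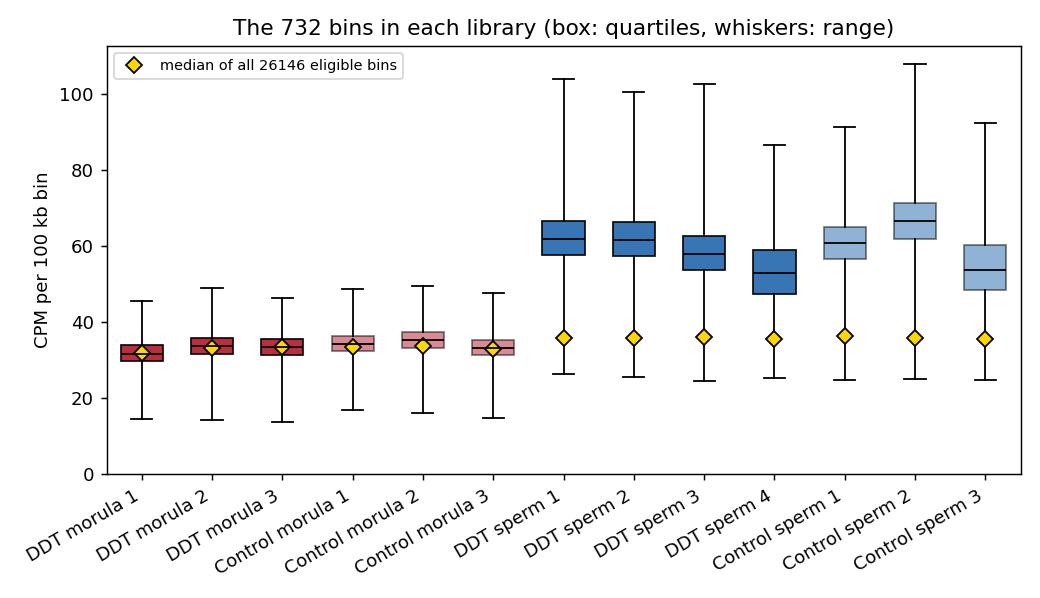
CPM per 100 kb bin in the 732 domains for each library (box for the quartiles with the median, whiskers for the range), with DDT libraries left of control libraries in each tissue, and the median of all 26146 bins as a diamond. The domains' median lies between 31.7 and 35.2 CPM in the 6 morula libraries, on the diamond or close to it, and between 52.9 and 66.5 CPM in the 7 sperm libraries, lowest among sperm in DDT sperm 4 and control sperm 3.

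In morulae the domains were ordinary, and in sperm they were among the richest stretches of the autosomes. Their median level was 33.6 CPM per bin in morulae (interquartile range 31.8 to 35.6) and 59.7 CPM in sperm (55.6 to 63.7). Over all 26146 bins the medians were 33.0 CPM in morulae (29.8 to 38.7) and 36.1 CPM in sperm (27.9 to 44.8). The domains' median lay above 53.6% of all bins in morulae and above 96.3% of them in sperm. Single libraries showed the same. The median of the domains over that of all bins was 0.992 to 1.05 in the 6 morula libraries, against 1.60 to 1.86 in 5 sperm libraries, 1.49 in DDT sperm 4 and 1.51 in control sperm 3. The domains also varied less among themselves than all bins did, in both tissues. The SD was 3.32 CPM over the 732 bins against 17.6 CPM over all bins in morulae, and 6.88 against 13.9 CPM in sperm. All bins include some of very high signal, up to 805 CPM in morulae and 503 CPM in sperm.

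The ratio of morula to sperm ranged in the domains from 0.420 upward, with a median of 0.571 and an interquartile range of 0.549 to 0.586. At most 0.5 was reached by 27 bins and at most 0.55 by 195 bins, so most domains lie near the threshold. The median ratio of all 26146 bins was 1.01, and their central 90% ran from 0.632 to 1.54. The threshold cuts through a continuous distribution. Just inside it were the bins at chr6:130300001-130400000, chr12:30100001-30200000 and chr3:46400001-46500000, with ratios of 0.5999, 0.5999 and 0.59999, and just outside were those at chr20:47700001-47800000, chr5:141800001-141900000 and chr5:152600001-152700000, with ratios of 0.6002, 0.6003 and 0.6005. In 729 of the 732 domains each morula library was below each sperm library, which held for 31.2% of all bins. The 3 exceptions were at chr3:63600001-63700000, chr20:8800001-8900000 and chr9:96800001-96900000. In the chromosome 3 bin, DDT morulae had 23.2, 26.2 and 28.4 CPM and control morulae 29.0, 30.6 and 26.3 CPM, against 51.4, 52.0, 47.3 and 29.8 CPM in DDT sperm and 67.7, 82.0 and 30.7 CPM in control sperm. DDT sperm 4 overlapped the morulae there, and control sperm 3 lay just above their highest library. In the other 2 bins the same pair were the lowest of the sperm.

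**Figure D2:**
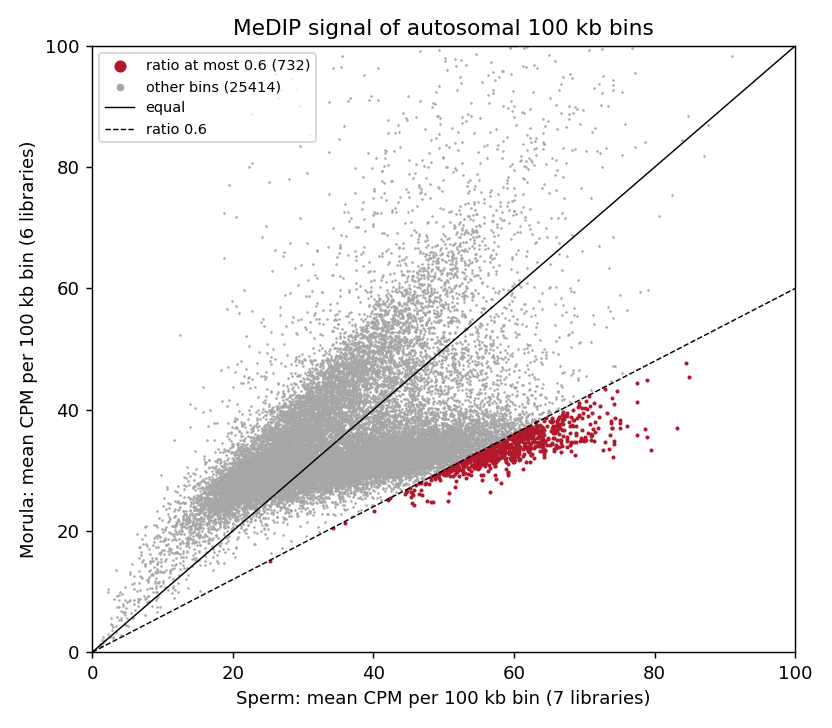
Mean CPM per 100 kb bin in the 6 morula libraries against the mean in the 7 sperm libraries for 26146 autosomal bins, with the 732 domains marked. The domains lie at the right of the cloud at sperm levels around 60 CPM while their morula levels stay around 34 CPM, and 224 bins lie beyond the axes at 100 CPM.

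Domains came mainly from the bins of highest sperm signal. With the 26146 bins put into 20 classes of rising sperm level, the highest class (57.7 CPM or more) held 453 domains, 34.6% of its 1308 bins. The next 2 classes held 192 (14.7%) and 46 (3.52%), and each of the 17 lower classes held 18 or fewer. The median ratio was 1.48 in the lowest class, was lower in each class than in the one before, and was 0.649 in the highest. The sperm level of a bin is the denominator of its ratio, so the classes and the ratio are not independent.

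A high sperm level alone did not make a domain. Among bins whose sperm level lay in the interquartile range of the domains, 366 were domains and 860 were not. The median morula level was 33.8 CPM in those domains, against 41.0 CPM in the 860 other bins. Within a range of sperm levels the cut on the ratio selects low morula levels, so this difference follows from the rule. The median ratio of the 860 was 0.701 and their highest 2.78, and 202 of them (23.5%) had at least as much signal in morulae as in sperm. At matched sperm level, then, morula levels ran upward from the domains to well above the sperm level, with 428 of the 860 bins at a ratio of 0.7 or less. Across bins, the log2 morula and log2 sperm levels had a Pearson correlation of 0.878 over the 732 domains, which share the cut on the ratio, and 0.646 over all 26146. The bins share libraries, and both levels of a bin depend on its CpG number, which was not analysed here, so these are descriptions.

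The lineages share no library, so they can be set side by side. The ratio was at most 0.6 in 851 bins (3.25%) of the DDT lineage alone and in 727 bins (2.78%) of the control lineage alone, and 554 bins were in both lists, 65.1% of the DDT list and 76.2% of the control list. In the bins of the control list, the DDT ratio ran from 0.421 to 0.719 with a median of 0.571. In those of the DDT list, the control ratio ran from 0.392 to 0.771 with a median of 0.582. Bins low in 1 lineage were thus low in the other, also where they missed the threshold. In the 732 domains the median ratio was 0.564 in the DDT lineage and 0.571 in the control lineage, and it was the lower in the DDT lineage in 387 of them (52.9%), against 50.0% of all bins.

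Within the domains the lower signal was spread over most windows. Of the 73200 windows, 58384 (79.8%) had less signal in morulae than in sperm, against 40.3% of the 2541400 windows of other bins. The median domain had 80 of its 100 windows lower in morulae, with a range of 25 to 99, and the median of the other bins was 39. The median window of the domains had a ratio of 0.586, against 1.16 in other bins. A ratio of 0.5 or less was found in 36.4% of domain windows and in 9.59% of other windows, and a ratio of 2 or more in 5.10% and 25.9%.

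The domains had few windows of high signal in morulae and many in sperm. In morulae, the windows of the domains had a median of 0.312 CPM (10th to 90th percentile 0.200 to 0.481), and in sperm 0.526 CPM (0.162 to 1.08). Windows with 1 CPM or more made up 0.992% of the domain windows in morulae, against 12.8% of them in sperm. In other bins they made up 3.97% in morulae and 5.39% in sperm. The windows of a domain were also more alike than those of other bins. The coefficient of variation over the windows of a domain had a median of 0.446 in morulae and 0.676 in sperm, and in other bins it was 0.642 in morulae and 0.941 in sperm. The 10 windows with the largest deficit in morulae carried a median of 34.8% of a domain's net deficit (21.9% to 83.9%).

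To keep the choice of windows apart from their values, windows were put into 10 classes by their level in control sperm and then read in the DDT lineage. In the class of highest control sperm signal, which held 26.6% of the domain windows and 9.52% of the others, domain windows averaged 0.446 CPM in DDT morulae and 1.10 CPM in DDT sperm, a ratio of 0.407. Windows of the same class in other bins averaged 1.04 CPM in DDT morulae and 1.27 CPM in DDT sperm, a ratio of 0.819. In the next class the ratio was 0.524 in domains and 0.686 in other bins, and in the fifth class 1.11 and 1.31. In the lowest class both lay well above 1, at 4.54 in domains and 5.86 in other bins. Domain windows were below other windows of the same class in all 10 classes. The rule chose the domains with the DDT libraries too, so this is no independent test.

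The domain of lowest ratio was chr9:37900001-38000000. DDT morulae had 31.9, 33.2 and 32.2 CPM there and control morulae 34.0, 36.9 and 32.0 CPM, against 81.6, 78.7, 69.4 and 64.8 CPM in DDT sperm and 86.6, 105 and 70.6 CPM in control sperm. The highest morula library was far below the lowest sperm library, and the ratio was 0.420. The bin beside it, chr9:38000001-38100000, had the next lowest ratio, 0.435, with 32.2 ± 1.95 CPM in morulae (SD, n = 6) and 74.0 ± 20.2 CPM in sperm (SD, n = 7). Sperm libraries differed widely in that bin, between 47.9 CPM in DDT sperm 4 and 108 CPM in control sperm 2.

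On chromosome 15 a second adjacent pair followed. The bin chr15:103700001-103800000 had 37.0 ± 2.16 CPM in morulae and 83.2 ± 12.96 CPM in sperm, a ratio of 0.444, and chr15:103800001-103900000 had 35.5 ± 0.894 CPM and 78.9 ± 9.58 CPM, a ratio of 0.451. The bin chr12:46400001-46500000 had a ratio of 0.455 and chr14:7200001-7300000 one of 0.458. On chromosome 20, chr20:19700001-19800000 had 34.3 ± 1.99 CPM in morulae and 74.2 ± 12.0 CPM in sperm, and chr20:9500001-9600000 had 35.9 ± 3.21 CPM and 77.5 ± 4.66 CPM, both a ratio of 0.463. All 8 bins had morula means between 32.2 and 37.0 CPM and sperm means between 72.7 and 83.2 CPM. Their sperm levels exceeded the 36.1 CPM median of all bins by far, and their morula levels lay near the median of 33.0 CPM.

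Inside these bins between 86 and 95 of the 100 windows were lower in morulae. The window with the largest deficit in the chromosome 14 bin, chr14:7237001-7238000, had 6, 14 and 17 counts in DDT morulae and 33, 14 and 17 in control morulae, against 189, 144, 141 and 102 in DDT sperm and 199, 323 and 99 in control sperm. That is a mean of 0.335 CPM in morulae and 1.93 CPM in sperm, a ratio of 0.174. On the CPM scale, DDT sperm 4 (3.03 CPM) and control sperm 3 (3.26 CPM) were the highest libraries there, although their totals were the smallest. In chr12:46463001-46464000 the means were 0.245 CPM in morulae and 1.37 CPM in sperm, a ratio of 0.179. In chr15:103738001-103739000 they were 0.434 and 2.13 CPM, with DDT sperm 4 (3.21 CPM) and control sperm 3 (4.05 CPM) again the highest. In the windows chr20:19729001-19730000 and chr9:38011001-38012000 the ratio was 0.215 and 0.222, and there control sperm 2 was the highest library, at 2.64 and 2.50 CPM. The windows chr20:9581001-9582000, chr15:103886001-103887000 and chr9:37977001-37978000 kept ratios of 0.350, 0.355 and 0.389.

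Most domains stood alone. The 732 bins formed 528 runs of adjacent bins, of which 396 were a single bin, 90 were 2 bins and 42 were 3 bins or longer, and 156 of the 732 bins lay in the last. The longest run was chr12:27100001-28300000, 12 bins or 1200 kb. Per bin it averaged 31.9, 33.1 and 33.4 CPM in DDT morulae and 34.5, 34.7 and 33.5 CPM in control morulae, against 60.5, 60.9, 57.6 and 56.0 CPM in DDT sperm and 61.7, 65.5 and 54.6 CPM in control sperm. Its ratio was 0.563, and its 12 bins ran from 0.503 to 0.592. No morula library reached the lowest sperm library in any of these averages.

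**Figure D3:**
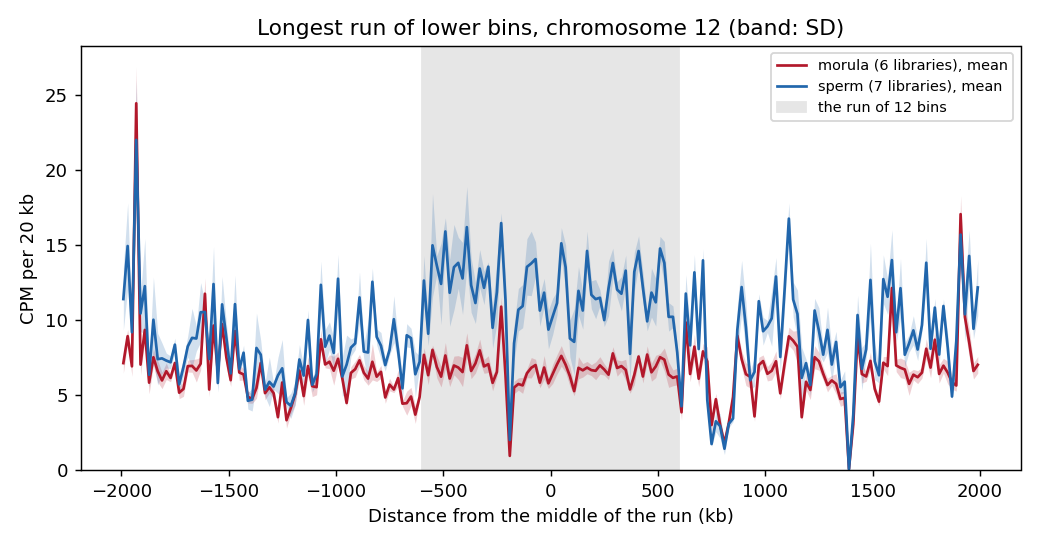
Mean CPM per 20 kb over the 6 morula libraries and over the 7 sperm libraries (band for the SD) against the distance in kb from the middle of the longest run on chromosome 12, which is shaded. Inside the run, 1200 kb long, morulae averaged 33.5 CPM per 100 kb bin and sperm 59.6 CPM, and the sperm line lies above the morula line over nearly all of it.

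The next longest run was chr4:178100001-178700000 with 6 bins. It averaged 34.0 CPM per bin in morulae and 61.5 CPM in sperm. Runs of 5 bins were found at chr3:166300001-166800000, with a ratio of 0.512 and 32.8 CPM in morulae against 64.2 CPM in sperm, at chr10:19900001-20400000 with a ratio of 0.5504 and at chr20:12700001-13200000. The chromosome 3 run was the lowest of these 5 runs, and its bins ran from 0.467 to 0.558.

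The neighbours of the domains were also low in ratio. Their bins lie above 0.6 by construction, since a bin at or below it would be a domain. The median ratio was 0.571 in the domains, 0.686 at 100 kb from a run, 0.719 at 200 kb, 0.740 at 500 kb, 0.775 at 1000 kb and 0.828 at 3000 kb, still under the 1.01 of all bins. The sperm level declined alongside, with medians of 59.7, 48.5, 45.9, 44.3, 43.2 and 41.2 CPM at the same distances. The morula level lay between 32.6 and 33.6 CPM at these distances.

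**Figure D4:**
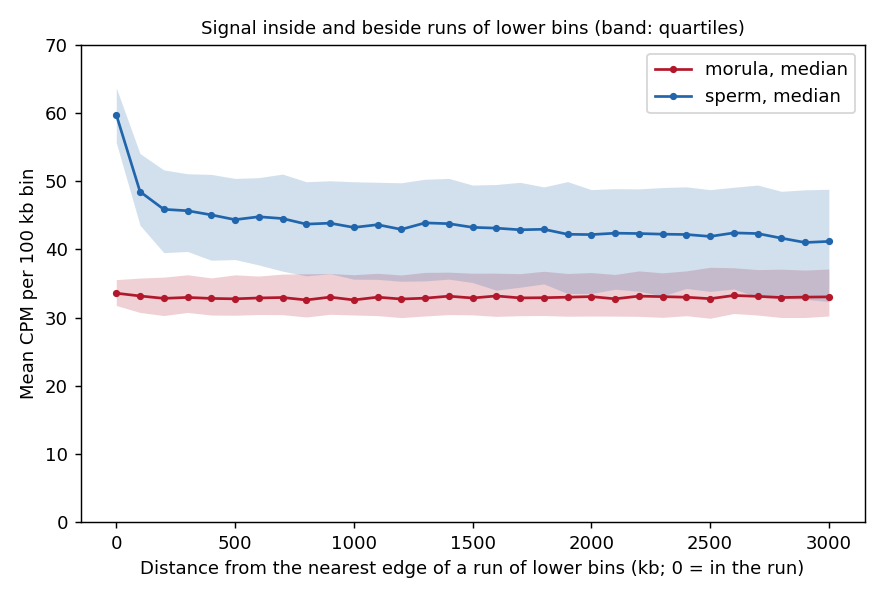
Median CPM per 100 kb bin in morulae and in sperm (band for the quartiles) against the distance in kb from a run of domains, with 0 for the runs themselves. Morula medians at the distances named in the text stay between 32.6 and 33.6 CPM, and sperm medians decline with distance, 59.7 CPM in the runs and 41.2 CPM at 3000 kb.

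Domains were found on all 20 autosomes but unevenly. Chromosome 12 held 84 of them, 15.9% of its 527 bins, and chromosome 20 held 61, 10.9% of its 561 bins. Chromosome 19 followed with 33 of 622 bins (5.31%), chromosome 17 with 35 of 907 (3.86%) and chromosome 10 with 43 of 1125 (3.82%). The lowest shares were 24 of 2659 bins (0.903%) on chromosome 2 and 47 of 2823 (1.66%) on chromosome 1. The chromosomes differed in their sperm level and hardly in their morula level. The median bin ran from 32.5 to 33.7 CPM over the chromosomes in morulae and from 34.0 CPM (chromosome 2) to 46.1 CPM (chromosome 12) in sperm.

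**Figure D5:**
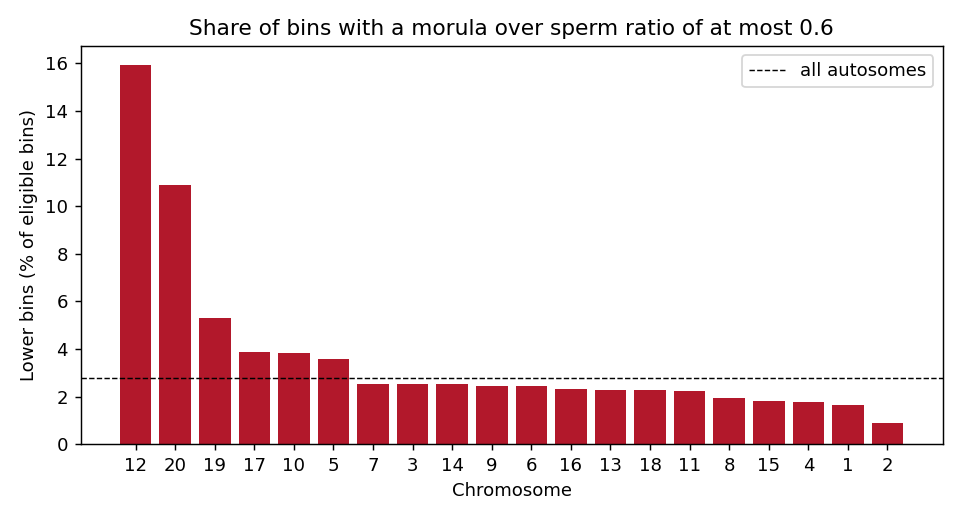
Percentage of the 100 kb bins of each autosome that are domains, a bar for each chromosome in falling order, with the 2.80% of all autosomes as a dashed line. Chromosomes 12 (15.9%) and 20 (10.9%) stand above the others, and chromosome 2 is the lowest at 0.903%.

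Along the chromosomes, domains were densest between 5 and 10 Mb from the nearer end of the assembled sequence, where 196 of 1997 bins (9.81%) were domains. From 10 to 20 Mb the share was 240 of 3996 (6.01%), and beyond 20 Mb it was 231 of 18160 (1.27%). It also declined toward the very ends, with 49 of 1196 bins (4.10%) at 2 to 5 Mb and 16 of 797 (2.01%) within 2 Mb. Only the last of these 2 shares was below the 2.80% of all bins. Without the short chromosomes 12 and 20 the share was again highest at 5 to 10 Mb, with values of 1.11%, 4.00%, 7.96%, 5.20% and 1.15% from the ends inward. Sperm levels followed the same course, with medians of 31.3, 37.9, 43.6, 39.6 and 34.9 CPM over all autosomes, and morula levels ran only from 32.9 to 34.1 CPM. The domains lay at a median of 13.02 Mb from the nearer end and all bins at 33.4 Mb. The 2 ends differed. Within 10 Mb of the first position of a chromosome, 83 of 1992 bins (4.17%) were domains, and within 10 Mb of the last, 178 of 1998 (8.91%). Cut into 535 stretches of 5 Mb, the autosomes had 200 with a domain and 13 with at least 10, which together held 166 domains. The densest were chr5:165000001-170000000 with 18 of 50 bins, chr20:5000001-10000000 with 17, chr20:45000001-50000000 with 16 and chr12:45000001-50000000 with 14.

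Whether the ancestral DDT exposure changed the signal in the domains is a question the rule did not use, and it was tested over all 26146 bins with edgeR's quasi-likelihood test. In morulae, 0 of the 732 domains passed at an adjusted p under 0.05, against 0.0191% of all bins (5 of 26146, all higher in DDT morulae and none of them a domain). DESeq2 called 0 domains as well. At an unadjusted p under 0.05, edgeR gave 69 domains (9.43%), all lower in DDT morulae, against 3.43% of all bins (2% lower and 1.43% higher). That count was 27 (3.69%, against 1.91% of all bins) without control morula 2 and 42 (5.74%, against 4.59%) without DDT morula 1. It was higher, at 96 (13.1%, against 4.86%), without DDT morula 2 and at 102 (13.9%, against 3.99%) without control morula 3. The differences were small. The median log2 difference of DDT over control morulae was -0.04 in the domains (range -0.21 to 0.09, median SE 0.05) and 0.0039 over all bins. Of the 732 domains, 601 (82.1%) were lower in DDT morulae, against 47.0% of all bins. DDT morulae held 2.41% ± 0.0756 and control morulae 2.50% ± 0.0776 of their counts in the domains (SD, n = 3 each), and the library values overlap. Bins of 1 library are not independent of each other, so the count of lower bins is not a count of separate observations.

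The smallest p in morulae belonged to chr20:9500001-9600000, 1 of the 8 bins of lowest ratio. It had 32.7, 32.8 and 34.1 CPM in DDT morulae and 38.6, 40.4 and 36.8 CPM in control morulae. The groups do not overlap, the log2 difference was -0.21 (SE 0.05), and the edgeR adjusted p was 0.142. Without control morula 3 the log2 difference was -0.23 and the bin passed the test, the only domain to do so in any of the 12 alternatives run on this comparison, with edgeR adjusted p values for the bin between 0.033 and 1. In sperm this bin had 84.4, 81.1, 75.3 and 74.7 CPM in the DDT lineage and 73.2, 81.1 and 72.5 CPM in the control lineage, with no call. The next, chr5:74200001-74300000, had 28.5, 27.9 and 29.4 CPM in DDT morulae and 33.3, 31.2 and 34.0 CPM in control morulae, a log2 difference of -0.19 (SE 0.05, edgeR adjusted p = 0.668). Among domains higher in DDT morulae, the smallest p values were those of chr17:76300001-76400000, with 37.9, 38.8 and 37.1 CPM in DDT morulae and 36.3, 37.2 and 34.0 CPM in control morulae (log2 0.09, SE 0.05), and chr10:105400001-105500000 (log2 0.09, SE 0.05). Their groups overlap, and neither passed the test.

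In sperm, 0 of the 732 domains passed, against 0% of all bins (0 of 26146). DESeq2 called 134 of all bins and 0 domains. At an unadjusted p under 0.05, edgeR gave 6 domains (0.820%), against 3.14% of all bins. That count was 126 (17.2%, against 11.3% of all bins) without control sperm 3 and 26 (3.55%, against 7.37%) without DDT sperm 4. It was 1 (0.137%, against 1.08%) without control sperm 1. Without DDT sperm 2 it was 2 (0.273%, against 1.28%) and without DDT sperm 3 it was 3 (0.41%, against 1.8%). Of the single libraries left out, only control sperm 3 put the share above that of all bins. The median log2 difference of DDT over control sperm was -0.05 in the domains and -0.01 over all bins, with a median SE of 0.10 in the domains, wider than in morulae. Of the 732 domains, 523 (71.4%) were lower in DDT sperm, against 55.2% of all bins. The median log2 difference turned to 0.03 without control sperm 2 and was -0.11 without control sperm 3. It was 0.0065 with the replicate block, a fit that also leaves out DDT sperm 4, and -0.0023 without that library alone.

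The result in sperm rests on the pair of libraries that stand apart. Without DDT sperm 4 and control sperm 3, 99 of the 732 domains passed, 17 higher and 82 lower in DDT sperm, against 13.8% of all bins (7.24% higher and 6.55% lower). The domains' 13.5% is near that background, with 2.32% higher and 11.2% lower. That direction in turn rests on control sperm 2, the library with the largest share of reads in the domains. Without it as well, 27 domains passed, against 6.22% of all bins (17 higher and 10 lower, against 4.26% and 1.95%), and the median log2 difference was 0.01. Without control sperm 1 in its place, 262 passed, against 19.7% of all bins (7 higher and 255 lower, against 8.79% and 10.9%), and the median was -0.14. Both of the last fits leave 1 control library and assume that it varies like the DDT libraries.

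The named domains of the sperm comparison were chr9:17300001-17400000, chr1:100400001-100500000, chr1:17700001-17800000 and chr17:71800001-71900000, and none passed with all 7 libraries (edgeR adjusted p = 1 for each). At chr1:100400001-100500000, DDT sperm had 104, 100.6, 103 and 71.2 CPM and control sperm 74.5, 68.8 and 69.4 CPM. DDT sperm 1 to 3 lie together and well above the control libraries, and DDT sperm 4 lies among them. The log2 difference was 0.42 (SE 0.13), and 0.52 without DDT sperm 4 and control sperm 3, where the bin passed the test (edgeR adjusted p = 0.00143, between 0.00143 and 1 over 16 alternatives). In morulae it had 45.03, 49.0 and 46.2 CPM in the DDT lineage and 48.7, 49.5 and 47.7 CPM in the control lineage, so the groups overlap there. The bins on either side, from 300 kb before to 300 kb after it, had 1.07 to 1.28 times as much signal in DDT sperm 1 to 3 as in control sperm 1 and 2, against 1.43 times in the bin itself. Of its 100 windows, 73 were higher on that comparison, and the 10 largest differences made up 71.0% of the net 30.8 CPM. The largest, chr1:100483001-100484000, had 7.01, 7.21, 7.49 and 2.64 CPM in DDT sperm and 4.17, 3.09 and 2.53 CPM in control sperm. This window and these neighbours were chosen after their values were seen.

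At chr9:17300001-17400000, DDT sperm had 75.7, 76.6, 72.6 and 69.6 CPM and control sperm 60.7, 62.5 and 67.0 CPM, with no overlap and a log2 difference of 0.22 (SE 0.07). At chr1:17700001-17800000, DDT sperm had 47.7, 47.2, 45.6 and 48.7 CPM and control sperm 54.5, 58.3 and 48.9 CPM, a log2 difference of -0.19 (SE 0.07). Without DDT sperm 4 and control sperm 3 both passed the test, at log2 differences of 0.29 and -0.26 (edgeR adjusted p = 0.00819 and 0.00429, with lowest values of 0.00819 and 0.00188 and a highest of 1 over the 16 alternatives). At chr17:71800001-71900000 the log2 difference was -0.19 (SE 0.08), and it was called in 1 of the 16 alternatives, without the pair and control sperm 1 (edgeR adjusted p = 0.0151, up to 1 in the others).

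The DDT difference in morulae was set against that in sperm by an interaction term over all 13 libraries. No domain passed (0 of 732), against 0% of all bins, and 17 domains (2.32%), all with a lower difference in morulae than in sperm, had an unadjusted p under 0.05 by edgeR, against 2.52% of all bins. That count was 90 (12.3%, against 7.55% of all bins) without control sperm 3 and 40 (5.46%, against 6.34%) without DDT sperm 4. It was 9 (1.23%, against 1.56%) without control sperm 1 and 10 (1.37%, against 1.43%) without control morula 2. DESeq2 called 11 of all bins and 0 domains. Without DDT sperm 4 and control sperm 3, edgeR called 11 domains, 1.503%, against 1.21% of all bins. The DDT difference was higher in morulae than in sperm in 6 of them, against 0.39% of all bins, and lower in 5, against 0.822%. The domain of smallest p was chr1:82000001-82100000. It had 33.8, 36.1 and 34.1 CPM in DDT morulae and 37.0, 37.3 and 37.9 CPM in control morulae, against 70.6, 68.3, 63.8 and 62.8 CPM in DDT sperm and 54.7, 60.0 and 58.0 CPM in control sperm. DDT libraries were the lower in morulae and the higher in sperm with no overlap in either tissue, the log2 difference of differences was -0.31 (SE 0.08), and the edgeR adjusted p was 1 with all libraries and 0.0354 without the pair, the lowest of 20 alternatives. At chr6:9600001-9700000 it was -0.27 (SE 0.09), at chr2:252700001-252800000 0.22 (SE 0.13) and at chr6:8600001-8700000 0.15 (SE 0.09), none past the test.

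The authors' deposited table of 1 kb windows gives the same comparison at a finer scale. By its adjusted p under 0.05, 0 of 65591 domain windows with a p differed between DDT and control morulae, against 9.45e-05% of all windows in the 26146 bins, and 0 of 69404 differed in sperm, against 0.00114%. At a deposited p under 0.05, 3103 domain windows (4.73%, against 4.58% of all windows) were counted in morulae, 1.84% higher and 2.89% lower in DDT, against 2.26% and 2.32% of all windows. In sperm 2191 (3.16%, against 3.74%) were counted, 1.16% higher and 1.99% lower, against 1.53% and 2.21%. A deposited p under 1e-05 was found in the authors' deposited table for 2 domain windows in morulae (0.00305%, against 0.0035%) and 1 in sperm (0.00144%, against 0.00342%).

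Those 3 windows were single and lay in different domains. The window chr18:79834001-79835000 had 30, 38 and 32 counts in DDT morulae and 28, 16 and 10 in control morulae, and the authors' deposited table gives it a log2 difference of 1.47 and an adjusted p of 0.0930. The window chr20:12336001-12337000 had 5, 3 and 5 counts in DDT morulae and 33, 30 and 19 in control morulae, with a log2 difference of -2.05 and an adjusted p of 0.176 in the authors' deposited table. In sperm, chr7:138153001-138154000 had 71, 63, 69 and 17 counts in the DDT lineage and 22, 21 and 7 in the control lineage, with a log2 difference of 2.00 and an adjusted p of 0.206 in the authors' deposited table. Divided by library totals, the groups of each of the 3 windows did not overlap.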

How the data were processed

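MeDIP-seq was measured in 13 rat libraries. Per the file headers, the authors deposited raw read counts per 1 kb window, and for each comparison an edgeR log2 fold change and a p-value with its adjusted p-value, which were read as deposited and turned to DDT over control. Tools listed in the submitters' processing notes, with no version, are Bowtie2, SAMtools, FastQC, Trimmomatic and edgeR, and the build is Rnor_6.0. Duplicate removal is not given in the sources used here. The counting of reads that map to several places, a separate setting, bears on windows rich in repeats. Genes, CpG content and sequences of the domains were not analysed here, and no input libraries were used.

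Counts were divided by the column total to give CPM and summed over 100 kb bins (Python 3.11.15). Summed counts were tested by edgeR's quasi-likelihood method (edgeR 4.0.16 in R 4.3.3, TMM scaling of column totals, two-sided, Benjamini-Hochberg adjustment over 26146 bins, threshold 0.05) and with DESeq2 1.42.0 as an alternative. The scripts were tested on simulated data. Counts of 1 library carry counting error that grows as its total falls, and the morula comparison had 3 against 3 libraries, the sperm comparison 4 against 3.

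Named bins were the 8 of lowest ratio with their window of largest deficit, the 5 longest runs, the 3 on either side of the threshold, and per DDT comparison the members past the test or, failing any, the 2 of smallest p in each direction. The domains, bins and lists were chosen with earlier results of these data known. Alternatives without control sperm 2 or 1 beside the pair were added after seeing the data. Deviations of same-numbered replicates from their group means correlated at -0.26, 0.13 and -0.24 in morulae and at 0.53, 0.81 and -0.63 in sperm. Differently numbered sperm replicates reached similar values, such as 0.66 for control 1 with DDT 2 and 0.75 for control 2 with DDT 1. The number thus gave no clear pairing. Control sperm 3 and DDT sperm 4 deviated together (0.90), and each correlated negatively with the other lineage's remaining sperm libraries (-0.63 to -0.87). Deviations from a group mean cancel within the group, so the correlations among sperm libraries are not independent of each other.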

Additional observations from a re-analysis of the deposited data

Results flagged for a closer look

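In the domain chr1:100400001-100500000, DDT sperm 4 lay far from the other DDT sperm libraries, at 71.2 CPM against 104, 100.6 and 103 CPM. Its gap to the nearest library was 0.898 of the range of the group, past Dixon's 95% critical value for 4 samples. Of 25 named bins, runs and sums checked in these 4 DDT sperm libraries, it was the 1 that passed, and chance gives about 1 in 20 for a single check. The 25 share the same libraries and are not independent. The bin was also named for its small p in the DDT sperm comparison. DDT sperm 4 is also 1 of the 2 shallow sperm libraries that stand apart, and whether its depth plays a part in this value was not tested.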

How the results depend on the processing

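The number of domains, 732, was 27 at a ratio of at most 0.5, 3317 at 0.7, 2067 in bins of 50 kb, 1145 without DDT sperm 4 and control sperm 3, and 592 to 884 when each library was left out. The other settings (TMM-scaled CPM, DDT or control lineage alone, no windows of highest CPM, bins shifted by 50 kb, medians, group means) gave 727 to 884. The calls for DDT against control in morulae over all 26146 bins, 5, were 8 with library-size scaling, 17 with DESeq2, 1 with the replicate block and 0 to 24 (0 to 1 among domains) leaving out each replicate. In sperm, 0 calls became 134 with DESeq2, 3604 (99 domains) without DDT sperm 4 and control sperm 3, 1626 (27) also without control sperm 2 and 5152 (262) also without control sperm 1. For the interaction they were 11 with DESeq2, 317 (11 domains) without the pair and 0 to 1 leaving out each replicate. The replicate block, a term for the replicate number, called 0 domains in each comparison. In sperm and for the interaction it also left out DDT sperm 4, which has no control library of the same number. For the bin chr20:9500001-9600000 the ratio in the control lineage alone was 0.511. The cause of these shifts was not tested. With the block, domains at an unadjusted p under 0.05 by edgeR numbered 62 in morulae (8.47%, against 2.67% of all bins). They numbered 23 in sperm (3.14%, against 5.23%) and 35 for the interaction (4.78%, against 5.3%). Without the pair, 17 domains were called higher in DDT sperm (2.32%, against 7.24% of all bins) and 82 lower (11.2%, against 6.55%). The direction in sperm turned with the library left out. The domains' median log2 difference was -0.07 without the pair, 0.01 also without control sperm 2 and -0.14 also without control sperm 1. The median log2 difference of the domains had no call, and leaving out each library it ran from -0.06 to -0.02 in morulae, from -0.11 to 0.03 in sperm and from -0.07 to 0.08 for the interaction. Whether the shallow libraries limit single windows more than bins was not tested.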

Other observations

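Chromosome X lay outside the rule. Of its 1595 bins that met the other conditions, 1 had a ratio of at most 0.6 (0.579, starting at position 63500001). The median X bin had 20.9 CPM in morulae and 17.2 CPM in sperm, and the median ratio was 1.29. Copies of X in sperm and in the morula pools were not measured, so X ratios cannot be set against autosomal ones.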
